A study of Mus musculus with 2 samples.

Results

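The RNA of sorted mouse microglia was examined for 8 genes of neurotransmitter receptors. They were a named list of adrenergic, GABA, glutamate, serotonin and nicotinic receptors (Adrb1, Gabbr1, Gabbr2, Grm5, Gria2, Htr2b, Htr7 and Chrna7), and make up 8 of the 53801 genes listed in each count file. All 8 symbols were matched by Ensembl identifier, and the rule for them uses no measured value, although the list was drawn up with earlier results of these data known. Of the 8, only Adrb1 and Gabbr1 had over 10 counts in both libraries. A gene over 10 counts in both libraries is called counted here.

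The samples were 2 sham libraries from the wild-type arm of a stroke study, in which microglia were compared after MCAO (occlusion of the middle cerebral artery) or sham surgery. The MCAO libraries were not analysed here, so the 2 libraries form 1 group and no test between conditions was run. Each library came from the brain of 1 mouse of genotype Cx3cr1(CreER/wt) on the C57BL/6 background, which carries a tamoxifen-inducible Cre recombinase in place of 1 Cx3cr1 allele and has no floxed gene in this arm. The titles call both samples sham, while their treatment label reads none. Both mice received tamoxifen at 75 mg/kg per day for 4 days. Sham surgery followed 14 days after the first injection, and cells were taken from the left hemisphere 3 days later. The design text of the series describes males of 8 to 10 weeks, whereas the methods of the study give an older range and both sexes. The cells were sorted as CD11c-Ly6G-CD11b+CD45low, the gate used for microglia.

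Neurotransmitter receptors are best known from neurons, but microglia sense transmitters as well. Noradrenaline acts on adrenergic receptors coupled to G proteins, of which the beta receptors raise cAMP through the stimulatory G protein. The GABA-B receptor is an obligate pair of the proteins encoded by Gabbr1, which binds GABA, and Gabbr2, which couples to inhibitory G proteins. AMPA receptors (Gria2) and the alpha7 nicotinic receptor (Chrna7) are ion channels, while mGlu5 (Grm5), 5-HT2B (Htr2b) and 5-HT7 (Htr7) signal through G proteins.

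Sham library 1 held 23381026 counts on genes and library 2 held 41142609. Levels were expressed as CPM, the count of a gene divided by its library total and multiplied by 1000000. A count of 0 allows at most 0.128 CPM in the first library and 0.0729 CPM in the second. Intervals and limits cover counting error only, because amplified reads without molecular identifiers are not independent molecules. All 10 microglia markers were counted in both libraries, at a sum of 39111 and 44409.8 CPM. Sall1 was over 2-fold lower in library 2 (337 and 146 CPM), while the other 9 were within 2-fold. With an adjustment for GC content and transcript length, described further on, none of them was over 2-fold lower and 1 was over 2-fold higher. The 10 neuron markers summed to 5.26 and 7.29 CPM, with the highest mean for Snap25, and Gad1 was at 0 in library 1. Library 2 stood apart in its neutrophil markers. All 13 were over 2-fold higher there, with a sum of 4608 CPM in library 1 and 62234 CPM in library 2. Ngp had the highest mean of these, and S100a8 was above it in library 1. Basophil or mast cell markers had 0.0855 and 167 CPM, with the highest mean for Prss34 and with Fcer1a, Mcpt8, Ms4a2 and Prss34 at 0 in library 1. Choroid plexus markers, led by Ttr, had 24.3 and 370.0 CPM. Border macrophage markers summed to 734 and 357 CPM but did not move as 1 group. F13a1, the highest, had 225 and 64.7 CPM. It was 1 of 3 over 2-fold lower in library 2, with Mrc1 (189.5 and 42.7 CPM) and Cd163 (48.5 and 10.8 CPM). The other 5 were within 2-fold. Over 2-fold lower in library 2 were thus 37.5% of these markers, beside 25.8% of all counted genes. With the GC and length adjustment these shares were 37.5% and 12.4%. Smaller differences were seen for the markers of astrocytes (235 and 193 CPM, led by Slc1a3), oligodendrocytes (235 and 242 CPM, led by Cnp, with Cldn11 at 0 in 1 library) and endothelial cells (18.6 and 15.7 CPM, led by Pecam1, with Slco1a4 at 0 in library 1). Markers of oligodendrocyte precursors had 1.28 and 0.899 CPM, with the highest mean for Olig1, and with Pdgfra at 0 in both libraries and C1ql1, Olig2 and Sox10 at 0 in at least 1.

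Adrb1 encodes the beta-1 adrenergic receptor, which couples to the stimulatory G protein. In library 1 it had 571 counts, against 129 in library 2, giving 24.4 CPM (exact Poisson 95% interval 22.5 to 26.5) and 3.14 CPM (2.62 to 3.73). The mean was 13.8 ± 15.1 CPM (SD, n = 2 libraries). Library 1 was high and library 2 low by 7.79-fold, so the SD was larger than the mean. On the log2 scale the ratio of library 2 over library 1 was −2.96 (exact conditional 95% interval −3.25 to −2.68). In the count files Adrb1 (ENSMUSG00000035283) lies at chr19:56722372-56724862 of GRCm38 on the plus strand, an extent of 2491 bases. GENCODE M21 gives the gene a longer extent, from 56722199 to 56733113, and reads on that added part were not counted for Adrb1.

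Gabbr1 (ENSMUSG00000024462, chr17:37045966-37075067, plus strand) encodes the GABA-binding subunit of the GABA-B receptor. The receptor subunit had 263 and 130 counts, which gave 11.2 CPM (9.93 to 12.7) and 3.16 CPM (2.64 to 3.75). The mean was 7.20 ± 5.72 CPM (SD, n = 2). Library 1 was again the higher one, by 3.56-fold, with a log2 ratio of −1.83 (−2.15 to −1.52). Thus both counted genes were lower in library 2, and their count intervals did not overlap between the 2 mice. Such intervals, which hold counting error only, did not overlap for 69.7% of all counted genes, 44.6% being lower in library 2. The median log2 ratio of all 13242 counted genes was −0.26. Adrb1 stood at percentile 1.125 and Gabbr1 at percentile 8.94 of these ratios, counted from the lowest. Of all counted genes, 31.5% were over 2-fold apart between the libraries, 25.8% lower and 5.64% higher in library 2, so a gene over 2-fold lower in library 2 is common in this pair. With TMM scaling these shares were 19.3% and 8.70%, and Adrb1 and Gabbr1 stayed over 2-fold lower. After an adjustment for GC content and transcript length, described further on, Gabbr1 was within 2-fold at −0.60. In bulk RNA, fewer cells that express a gene and less RNA per cell cannot be told apart.

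**Figure D1:**
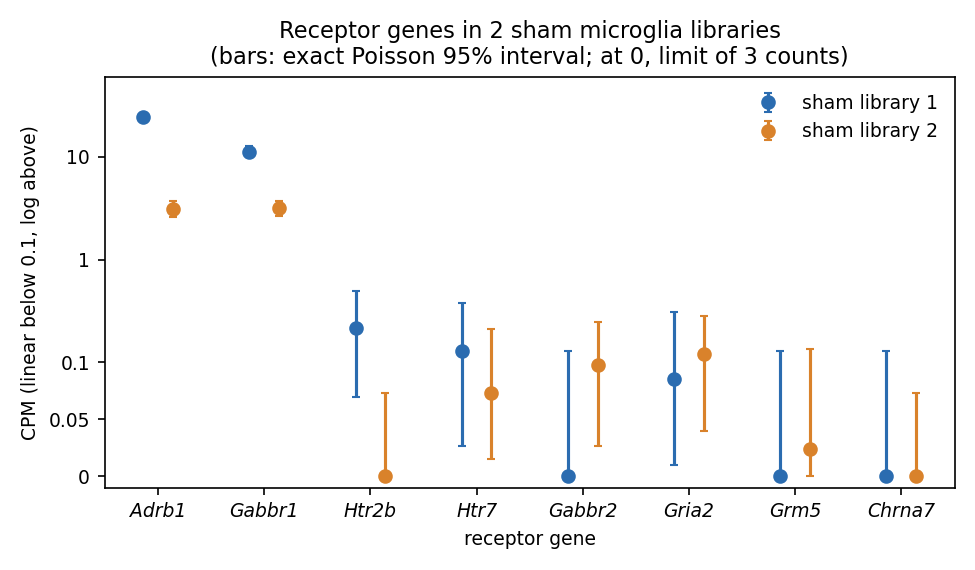
CPM of the 8 receptor genes (linear below 0.1, log above) in sham library 1 and sham library 2, with exact Poisson 95% intervals as bars, or the limit of 3 counts for a count of 0. Adrb1 and Gabbr1 lie between 3.14 and 24.4 CPM, while the other 6 genes lie at or below 0.214 CPM.

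To show what lies before the RefSeq starts (GRCm38.p6) of these genes, the 250 bases upstream were read. This was done for the 7 genes with an entry in the promoter table, which Grm5 is not in. For Gabbr2, Htr7 and Chrna7 the RefSeq start lies within the gene extent of the count files, so their stretches lie partly inside it. Printed are the stretches of both counted genes and of Htr2b, an uncounted gene whose stretch had the lowest GC content of the 7. They lie at chr19:56721867-56722116 on the plus strand for Adrb1, at chr17:37045716-37045965 on the plus strand for Gabbr1 and at chr1:86111981-86112230 on the minus strand for Htr2b. Capitals mark CG dinucleotides, and each sequence is written 5′ to 3′ on the strand of its gene.
Adrb1: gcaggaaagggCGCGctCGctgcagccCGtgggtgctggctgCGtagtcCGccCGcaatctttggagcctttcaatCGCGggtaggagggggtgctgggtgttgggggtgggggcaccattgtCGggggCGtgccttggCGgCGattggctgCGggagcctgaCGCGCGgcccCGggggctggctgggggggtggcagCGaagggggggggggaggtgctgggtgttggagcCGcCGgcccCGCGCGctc
Gabbr1: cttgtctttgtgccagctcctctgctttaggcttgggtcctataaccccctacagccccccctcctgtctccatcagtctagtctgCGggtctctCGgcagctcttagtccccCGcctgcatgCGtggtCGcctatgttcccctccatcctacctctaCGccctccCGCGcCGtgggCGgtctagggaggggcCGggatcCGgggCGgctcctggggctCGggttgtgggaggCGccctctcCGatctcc
Htr2b: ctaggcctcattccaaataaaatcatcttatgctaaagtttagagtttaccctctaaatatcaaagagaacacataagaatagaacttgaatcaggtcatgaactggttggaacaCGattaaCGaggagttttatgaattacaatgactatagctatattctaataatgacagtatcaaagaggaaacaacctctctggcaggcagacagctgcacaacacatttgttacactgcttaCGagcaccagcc

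The GC content was 74.0% for Adrb1, 66.0% for Gabbr1 and 37.6% for Htr2b, and the stretches held 24, 16 and 3 CG dinucleotides, respectively. Among the other genes that were not counted, Htr7 had 41, Gabbr2 37, Chrna7 25 and Gria2 19 CG dinucleotides. Counted and uncounted genes thus did not separate by CG number, and of the 5 uncounted genes in the table all but Htr2b had more than Gabbr1. Motifs were searched on both strands of all 32851 stretches of this length. The Sp1 box GGGCGG was found in 32.7% of them and in 4 of the 7 genes (Adrb1, Gabbr1, Gabbr2 and Chrna7). The cAMP response half-site TGACG was found in 17.8% of all stretches and in those of Adrb1 and Htr7. It also lies within the full element. The match of Htr7 lies in the part of its stretch that is inside the gene extent of the count files. The full cAMP response element TGACGTCA (1.55% of all) and the letters GAGGAAGT of a PU.1 site (2.44% of all) were found in none of the 7. A match describes the letters only.

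The other 6 genes were near the limit of counting. Gabbr2 (ENSMUSG00000039809, chr4:46662305-46991873, minus strand), the coupling partner of Gabbr1, was at 0 in library 1 and at 4 counts in library 2, or 0.0972 CPM (0.0265 to 0.249). The 0 in library 1 was read as up to 0.128 CPM, against 11.2 CPM for its partner. Counts of the GABA-B pair were therefore almost all on Gabbr1 in both mice.

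Among the glutamate receptors, Gria2 (ENSMUSG00000033981, chr3:80681450-80802835, minus strand), the AMPA receptor subunit that limits calcium entry, had 2 and 5 counts. Its levels of 0.0855 CPM (0.0104 to 0.309) and 0.122 CPM (0.0395 to 0.284) overlapped between the libraries. Grm5 (ENSMUSG00000049583, chr7:87584168-88134907, plus strand), the metabotropic receptor mGlu5, was seen with 1 count, in library 2. Both receptors are abundant in neurons, whose markers were low in these libraries (5.26 and 7.29 CPM summed over 10 genes). The part of neuronal RNA in the counts of Gria2 and Grm5 was not tested.

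Htr2b (ENSMUSG00000026228, chr1:86099026-86111970, minus strand) encodes the serotonin receptor 5-HT2B, which couples to Gq. Its 5 counts were all in library 1, at 0.214 CPM (0.0694 to 0.499), and the 0 of library 2 was read as up to 0.0729 CPM. On the opposite strand, exons of Psmd1, a proteasome subunit gene with 3782 and 6183 counts, cover 252 of the 2131 exon bases of Htr2b. The strand setting of the counting is not given in the sources used here, so the gene of origin of these 5 counts is uncertain. Htr7 (ENSMUSG00000024798, chr19:35958734-36057507, minus strand), the receptor 5-HT7 that couples to the stimulatory G protein, had 3 counts in each library, or 0.128 and 0.0729 CPM. Chrna7 (ENSMUSG00000030525, chr7:63098692-63212569, minus strand), the alpha7 nicotinic subunit, had 0 counts in both libraries. No exon of Adrb1, Gabbr1, Gabbr2, Grm5, Htr7 or Chrna7 is shared with another gene in GENCODE M21, and 111 bases of Gria2 exons are shared with Gm25749, a miRNA gene.

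The share of the 8 genes that was counted, 2 of 8, was near the 24.6% of all genes listed and below the 52.0% of protein-coding genes. No fold change was computed for the 6 genes under the minimum. The 0 of Chrna7 was read as up to 0.128 CPM in library 1 and 0.0729 CPM in library 2.

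Levels were then compared between genes per kilobase of merged exon. Adrb1 was highest in each library, at 9.80 and 1.26 CPM per kilobase, or 5.53 ± 6.04 (SD, n = 2). Gabbr1 followed at 1.45 and 0.407 CPM per kilobase, or 0.928 ± 0.737. The ranges of the 2 genes overlapped across the mice, although Adrb1 was the higher one within each mouse. Htr2b came next at 0.1004 and 0 CPM per kilobase, and its range was below that of Gabbr1. Then came Htr7 (0.0377 and 0.0215), Gabbr2 (0 and 0.0145), Gria2 (0.00550 and 0.00782), Grm5 (0 and 0.00237) and Chrna7 (0 and 0), all in CPM per kilobase. Of neighbours in this order, Htr2b and Htr7, Gabbr2 and Gria2, and Grm5 and Chrna7 had overlapping ranges, and the ranges of Htr2b and Gabbr2, which reach 0, also overlapped those of genes farther down. Per kilobase of the longest transcript, the mean of Gria2 (0.00998) was above that of Gabbr2 (0.00845), which turns their order. Each of these 6 genes had at most 5 counts in a library, so their order rests on single reads.

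Most receptor genes of the same and related families were not counted. Of 105 receptor genes in 11 families, 8 were counted (7.62%), beside 24.6% of all genes and 52.0% of protein-coding genes, and 48 had no count in either library. Among them, beside Adrb1 and Gabbr1, were Hrh2, Hrh1, Grm3, Chrnb1 and Chrm3. In library 2, where Adrb1 and Gabbr1 were lower, 3 of the 8 border macrophage markers (37.5%) were over 2-fold lower. This stood beside 25.8% of all counted genes. With the GC and length adjustment the shares were 37.5% and 12.4%. The neutrophil markers were 13.5-fold higher in sum in library 2. The part of border macrophages or neutrophils in the differences of Adrb1 and Gabbr1 was not tested.

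Hrh2, the histamine H2 receptor, had 710 and 1007 counts, or 30.4 and 24.5 CPM. Its log2 ratio of −0.31 (−0.45 to −0.17) was close to the median of all counted genes. The antisense gene Gm16578, with 11 and 13 counts, shares 145 of the 5935 exon bases of Hrh2. Hrh1, the histamine H1 receptor, had 46 and 24 counts and a log2 ratio of −1.75 (−2.53 to −1.01). Grm3, a metabotropic glutamate receptor that couples to inhibitory G proteins, had 16 and 55 counts with a ratio of 0.97 (0.14 to 1.87), in contrast to Grm5 with 1 count in all. Chrnb1, the beta subunit of the muscle nicotinic receptor, had 17 and 27 counts, and Chrm3, the muscarinic M3 receptor, had 12 and 22. The intervals of the ratios of Chrnb1 and Chrm3 included 0.

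**Figure D2:**
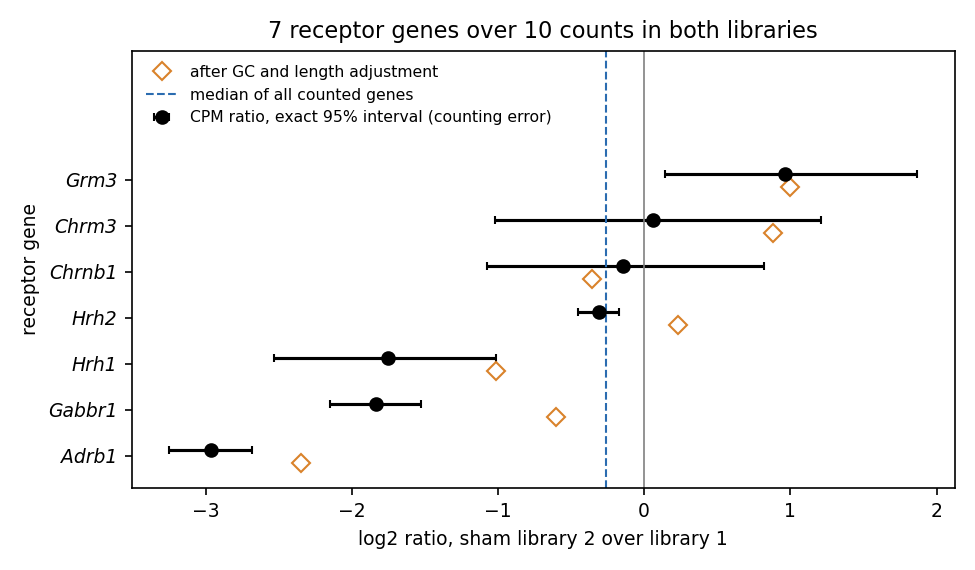
Log2 ratio of CPM, sham library 2 over library 1, for 7 receptor genes over 10 counts in both libraries, with exact 95% intervals for counting error and, as diamonds, the value after GC and length adjustment. Adrb1 (−2.96) and Gabbr1 (−1.83) lie farthest below the median of all counted genes (−0.26, dashed line), and Grm3 (0.97) lies highest of those plotted.

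By family, 2 of 9 adrenergic, 2 of 4 histamine, 1 of 2 GABA-B, 1 of 8 metabotropic glutamate, 1 of 16 nicotinic and 1 of 5 muscarinic genes were counted. None of the 19 GABA-A, 18 ionotropic glutamate, 14 serotonin, 5 dopamine or 5 glycine receptor genes was counted. The ionotropic glutamate genes together had 59 and 33 counts, the serotonin genes 20 and 34, and the nicotinic genes 28 and 60. The counts of Gria2, Htr2b, Htr7 and Chrna7 were therefore low beside low totals of their whole families.

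**Figure D3:**
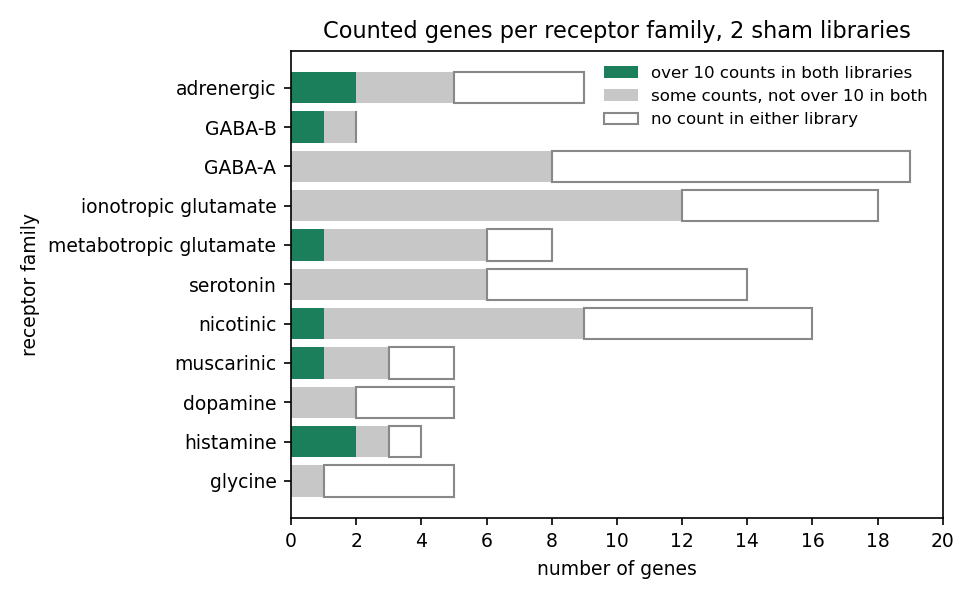
Number of genes per receptor family over 10 counts in both sham libraries (green), with some counts but not over 10 in both (grey), and with no count in either (white). Counted genes were found in 6 of the 11 families, and at most 2 in a family.

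The ratio between the libraries moved with transcript length. In the 10 groups of counted genes ordered by the length of the longest transcript, the median log2 ratio was between −0.06 and 0.17 in the 5 groups of shortest transcripts, and it was −1.06 in the group of longest transcripts. Of the genes in the latter group, 52.6% were over 2-fold lower in library 2. GC content moved with it less, with a median of −0.12 in the lowest and −0.64 in the highest of 10 groups. Gabbr1 has a longest transcript of 5248 bases, in the ninth length group with a median of −0.96, and genes of its GC and length bin had a median of −1.23. Adrb1, with 2952 bases and 58.8% GC, was in the fifth length group with a median of −0.06, and its bin had a median of −0.61. After these bin medians were subtracted, the log2 ratio was −0.60 for Gabbr1, within 2-fold, and −2.35 for Adrb1. The 2952 bases of Adrb1 are those of its longest GENCODE M21 transcript, beyond its extent of 2491 bases in the count files. That extent falls in the fourth length group, with a median of 0.03, and no adjustment was computed for it. After adjustment, 12.4% of all counted genes were over 2-fold lower and 9.56% over 2-fold higher in library 2.

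**Figure D4:**
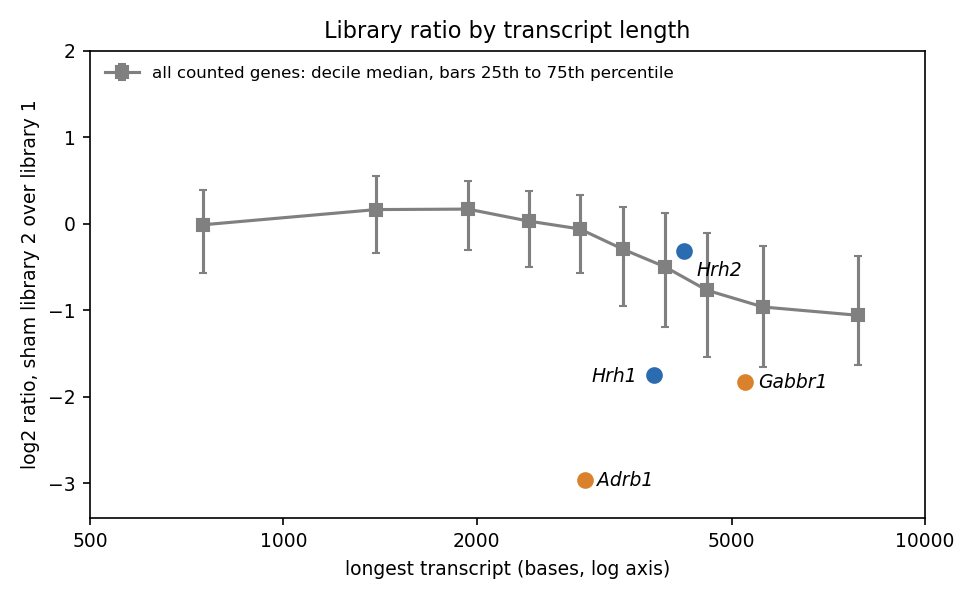
Log2 ratio of CPM, sham library 2 over library 1, against the length of the longest transcript (log axis). Grey squares are medians of 10 groups of counted genes with bars from the 25th to the 75th percentile, and Gabbr1 lies on the side of long transcripts where medians are near −1, while Adrb1 lies at −2.96 among transcripts with medians near 0.

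Genes that carry the signal of these receptors were examined next. Of 69 genes of G proteins, cAMP and phospholipase signalling, receptor desensitization and receptor partners, 42 (60.9%) were counted, beside 52.0% of protein-coding genes. Of the 42, 16 (38.1%) were over 2-fold lower and 4 (9.52%) over 2-fold higher in library 2, beside 25.8% and 5.64% of all counted genes. After the GC and length adjustment these numbers were 6 (14.3%) and 7 (16.7%), beside 12.4% and 9.56% of all counted genes. The adjustment was chosen for this list after its values were seen. The median log2 ratio of the 42 genes was −0.80 before and 0.14 after adjustment.

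Among the G proteins, Gnai2, an inhibitory alpha subunit to which GABA-B receptors couple, was the highest at 1122 and 933 CPM. Gnaq, an alpha subunit used by 5-HT2B and mGlu5, had 105 and 45.9 CPM, a log2 ratio of −1.19. Adcy7 was the highest adenylyl cyclase at 153 and 88.6 CPM. Prkar1a, a regulatory subunit of protein kinase A, had 453 and 518 CPM. Pde3b, a phosphodiesterase that breaks down cAMP, had the highest mean of its list, at 273 and 57.7 CPM. Its log2 ratio was −2.24, and −1.40 after adjustment. Pde4b was above Pde3b in library 2 (68.7 and 77.2 CPM). Plcb3, which had the highest mean of the beta phospholipases C, had 82.8 and 16.4 CPM, although Plcb2 was above it in library 2 (58.2 and 34.2 CPM). Grk2, a kinase that phosphorylates active receptors, had 111 and 39.6 CPM, and Arrb2, the arrestin that then binds them, had 191 and 73.9 CPM. After adjustment, Arrb2 stayed over 2-fold lower at −1.42, whereas Gnaq was at −0.21 and Grk2 at −0.69.

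The known partners of the 8 receptors differed in level. Kctd12, an auxiliary subunit of the GABA-B receptor, had 160.1 and 107 CPM. Kcnj9, a potassium channel subunit opened by G proteins, had 2.10 and 1.26 CPM, and it was the only 1 of 4 such channel genes to be counted. Of the 23 partner genes 7 (30.4%) were counted, beside 24.6% of all genes listed and 52.0% of protein-coding genes. Another 5 partner genes had no count in either library. Partners thus ranged from a level above that of Gabbr1, for Kctd12, to levels as low as those of Gria2 and Grm5.

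**Figure D5:**
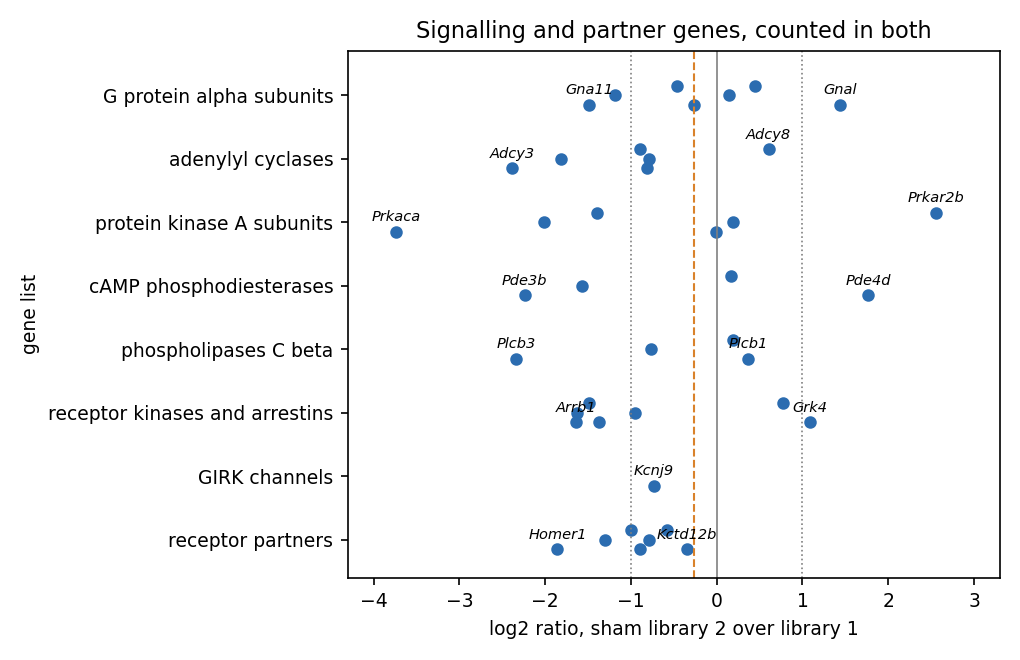
Log2 ratio of CPM, sham library 2 over library 1, for the 42 counted signalling and partner genes, 1 point per gene and 1 line per gene list, with the genes of lowest and highest ratio in each list labelled. Dotted lines mark a 2-fold difference and the dashed line the median of all counted genes; 16 points lie below −1 and 4 above 1.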

How the data were processed

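Microglia from 2 sham-operated mice were sequenced, 1 library per mouse. The cDNA was made with the SMART-Seq HT Kit and libraries with Nextera XT, and both were sequenced paired-end. The authors aligned reads with HISAT2 to GRCm38, and HTSeq then gave a number per Ensembl gene, so the deposited values are raw counts without normalization. Versions, annotation release and strand setting are not given in the sources used here. The files hold no rows without a gene.

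Symbols of GENCODE M21 (GRCm38) matched 53706 of 53801 identifiers. File coordinates equalled those of M21 for 7 of the 8 members, Adrb1 being the exception, and for 233 of the 254 listed genes. Starts were converted to count from 1, and merged exons were limited to the extent in the files. CPM was the count divided by the 23381026 or 41142609 counts on genes, times 1000000. Genes over 10 counts in both libraries were called counted. Counts had exact Poisson and ratios exact conditional (Clopper-Pearson) 95% intervals, and a count of 0 was read as up to 3 counts. With 1 group, no p-value was computed. For the GC and length adjustment, ratios were reduced by the median of counted genes in the same of 10 by 10 bins of the longest transcript, or of the GC bin alone under 20 genes. The interval and the adjustment were tested on simulated Poisson counts with a bias by GC content and no length effect. The length part of the adjustment and spread beyond counting error were therefore not tested.

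The rule for the members uses no value, but the members and lists were chosen with earlier results of these data known. Named were all members, the other counted receptor genes, the highest gene of each signalling list, those over 2-fold apart among the 10 highest signalling genes, and the highest gene and zeros of each marker list. A receptor gene and a marker gene that this rule names are not reported here. Likeness of pattern was not computed, since 2 libraries give 1 ratio per gene. The alternatives were edgeR 4.0.16 TMM, DESeq2 1.42.0 size factors, totals without mitochondrially encoded or neutrophil marker genes, other minimums, transcript length and leaving out each library. Python 3.11.15, scipy 1.17.1, pandas 2.3.3 and R 4.3.3 were used.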

Additional observations from a re-analysis of the deposited data

How the results depend on the processing

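No paired analysis was possible because both libraries belong to 1 group. Of the 8 receptor genes, 2 were counted with a minimum of over 3 or over 30 counts, of 0.5 CPM, or in either library alone, and 4 had any count in both libraries. Of the 105 receptor genes 8 were counted, 4 with over 30 counts and 31 with any count in both libraries. Both counted members were over 2-fold apart under every scaling tried, but only 1 was so after the GC and length adjustment, because the bin median of Gabbr1 was −1.23. Of the signalling genes, that adjustment left 6 lower and 7 higher in place of 16 and 4, an alternative chosen after seeing the data for this list. TMM and DESeq2 size factors moved the median log2 ratio of all counted genes from −0.26 to −0.01 and 0.01, and the genes over 2-fold lower and higher in library 2 to 19.3% and 8.70% with TMM and to 18.9% and 9.16% with DESeq2. The ratio was −2.71 for Adrb1 and −1.58 for Gabbr1 with TMM. The sign of the ratio of Chrnb1 changed from −0.15 to 0.11 with TMM and 0.13 with DESeq2, and that of Hrh2 to 0.23 after adjustment. With 2 libraries, leaving 1 out always stays within 1 SD of the mean, so it says nothing about stability. Depth limits the 6 uncounted members to presence or absence of single reads.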

Other observations

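Some genes of the cAMP pathway stood out only after their values were seen. Prkaca, the catalytic alpha subunit of protein kinase A, was at 976 and 129 counts, or 41.7 and 3.14 CPM. Its log2 ratio of −3.73 (exact conditional 95% interval −4.01 to −3.47) was −3.71 after the GC and length adjustment. Prkar2b, a regulatory subunit of the same kinase, had 28 and 289 counts and went the other way, with 2.55 (1.99 to 3.17) before and 2.68 after adjustment. Pde4d, a cAMP phosphodiesterase, had 46 and 275 counts and a ratio of 1.76, and Gnal, an alpha subunit of the stimulatory class, had 101 and 481 counts and a ratio of 1.44. Exons of Mppe1 on the opposite strand, at 280 and 1379 counts, share 852 of the 11172 exon bases of Gnal. Neutrophil markers were 13.5-fold higher in library 2, and their part in these differences was not tested.

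Gnas, which encodes the stimulatory alpha subunit used by beta adrenergic receptors, had 22 and 28 counts, beside 26243 and 38393 counts of Gnai2. In GENCODE M21, exons of Gm20721 and Nespas on the opposite strand cover 13.1% and 8.83% of its exon bases, and both genes had at most 1 count in a library. The strand setting of the counting is not given in the sources used here, so the level of Gnas is uncertain, and the part of these overlaps in it was not tested.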
